A study of Mus musculus with 16 samples.

Results

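Slamf8, Cd72, Cd52, Stap1, Gpr31b, Emr4, Klra2 and Tmem51 are 8 mouse genes that stood higher in xenograft tumours of trastuzumab-treated mice than in tumours of mice without the antibody. They were chosen by that difference, out of 23354 mouse gene symbols with a value in all 16 libraries. Of these symbols, 15610 passed the filter on low counts and were tested, all 8 of the chosen genes among them. The trastuzumab difference of these genes is therefore given as a description, with no test. Tests were made of the panobinostat difference, the interaction of the drugs and the correlation between genes among libraries of 1 group.

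Messenger RNA was sequenced from 16 whole tumours of AU565(pv), a human HER2-amplified breast cancer cell line, implanted into mammary fat pads. The hosts were SCID mice, whose lack of mature T and B lymphocytes leaves them with macrophages, granulocytes and natural killer (NK) cells. The combination group (4 mice) received trastuzumab at 10 mg/kg and panobinostat at 15 mg/kg. The trastuzumab group (4 mice) received trastuzumab at 10 mg/kg with the panobinostat vehicle D5W. The panobinostat group (4 mice) received panobinostat at 15 mg/kg with the trastuzumab vehicle PBS, and the vehicle group (4 mice) received both vehicles. All agents were injected intraperitoneally once tumours measured 20 to 25 mm2, panobinostat was given on days 0 and 1, and tumours were collected on day 2. The labels place the trastuzumab dose on day 0 in one field and on day 1 in another, so the time of exposure is uncertain. Trastuzumab is an antibody against human HER2 whose constant region can be bound by Fc receptors of host leukocytes, and panobinostat inhibits histone deacetylases. The tumour cells are human and the counted genes are mouse genes, so the values are read as those of the host's cells, but how many human reads they hold was not measured. Total counts were 4848244 to 8140782 per library.

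Most of the genes encode proteins of the leukocyte surface. Slamf8 belongs to the SLAM family of immunoglobulin-like receptors, is found on macrophages and dendritic cells, and restrains the phagocyte NADPH oxidase in mice. Cd72 and Klra2 (also Ly49b) are C-type lectin-like receptors with an inhibitory motif (ITIM) in the cytoplasmic tail, which recruits the phosphatase encoded by Ptpn6. Cd52 encodes a short glycopeptide held in the membrane by a lipid anchor. Gpr31b and Emr4 encode receptors with a seven-pass membrane domain: the human counterpart of Gpr31b binds the lipid 12-HETE, and Emr4 (now Adgre4) is a relative of the macrophage marker F4/80. Stap1 is an exception to the label of surface genes, since it encodes a cytoplasmic adaptor with PH and SH2 domains that binds activated receptor tyrosine kinases. Tmem51 encodes a membrane protein. Cd72, Cd52 and Stap1 are also genes of B cells, which these hosts lack in mature form.

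In mm10 with the GENCODE M21 annotation, all 8 are protein-coding genes. Slamf8 lies on chr1:172581758-172590568 (minus strand), Stap1 on chr5:86071746-86106125 (plus strand) and Klra2 on chr6:131219223-131247362 (minus strand). Chromosome 4 holds Cd72 (chr4:43446462-43454628), Cd52 (chr4:134082448-134095082) and Tmem51 (chr4:142030992-142084304), all on the minus strand. Chromosome 17 holds Gpr31b (chr17:13051014-13052296, minus strand, 1 exon) and Emr4 (chr17:55749984-55853662, plus strand). Gpr31b shared 87.6% of its 50-base stretches with Gpr31a, Gm6553 and AC166110.3, so its count is uncertain. Exons of Cd72 overlap those of Tesk1 on the opposite strand, which made up 36.7% of its 50-base stretches, and the library kit does not mark strand. Tesk1 stood at 45.5 to 74.8 CPM (a gene's count relative to the library's total, scaled by edgeR's TMM method), with log2 differences of -0.03 for trastuzumab and -0.02 for panobinostat. Cd52 shared 8.89% of its stretches with Crybg2, which the table lists as Aim1l at 0.638 to 2.75 CPM, and Tmem51 shared 10.6% with Tmem51os1, not analysed here.

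Promoter sequence (250 bases before to 50 after the RefSeq start, GRCm38.p6) was at hand for 6 of the 8 genes, not for Cd52 and Stap1. The 100 bases before the start are shown for 4 genes, because they hold letters of motifs that myeloid and interferon-responsive promoters are known for. The motifs were chosen after these promoters had been read. Capitals mark GAGGAAGT, a sequence bound by the myeloid factor PU.1, in Cd72 (opposite strand) and Gpr31b, its shorter core GAGGAA in Klra2 (opposite strand), and the core of the interferon-stimulated response element (GAAA, any 2 letters, GAAA) in Slamf8 (opposite strand). The RefSeq start of Gpr31b is that of its coding sequence. Each sequence reads 5′ to 3′ on the gene's strand, which is the minus strand for all 4.
Slamf8 chr1:172590569-172590668: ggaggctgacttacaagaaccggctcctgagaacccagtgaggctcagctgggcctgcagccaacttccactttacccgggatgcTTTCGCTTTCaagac
Cd72 chr4:43454627-43454726: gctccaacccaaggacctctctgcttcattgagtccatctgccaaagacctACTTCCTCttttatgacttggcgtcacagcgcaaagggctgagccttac
Klra2 chr6:131247363-131247462: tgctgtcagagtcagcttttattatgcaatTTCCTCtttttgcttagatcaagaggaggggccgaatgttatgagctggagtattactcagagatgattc
Gpr31b chr17:13052281-13052380: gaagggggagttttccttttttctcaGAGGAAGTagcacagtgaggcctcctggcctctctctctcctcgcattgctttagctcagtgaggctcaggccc

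On either strand of the full window, GAGGAAGT occurred in 3 of the 6 promoters, at -49 to -42 in Cd72, -74 to -67 in Gpr31b and 42 to 49 in Emr4, counted from the start. It occurred in 3.2% of the 32851 promoters of the same length. GAGGAA, which lies within the longer motif, was present in all but Tmem51, so in 5 of 6, and in 28.3% of all promoters. The interferon-stimulated response element core was found in Slamf8 alone of the 6 (-15 to -6) and in 3.44% of all promoters. An exact form of the kappaB site, with no letter left free, was also found in Slamf8 (37 to 46) and in 0.155% of all. Other forms of the kappaB site were not searched for, so this share is not that of kappaB sites in general. TTCNNNGAA, a STAT-type motif, was found in Klra2 and in 8.3% of all. These matches describe letters and not binding.

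**Figure D1:**
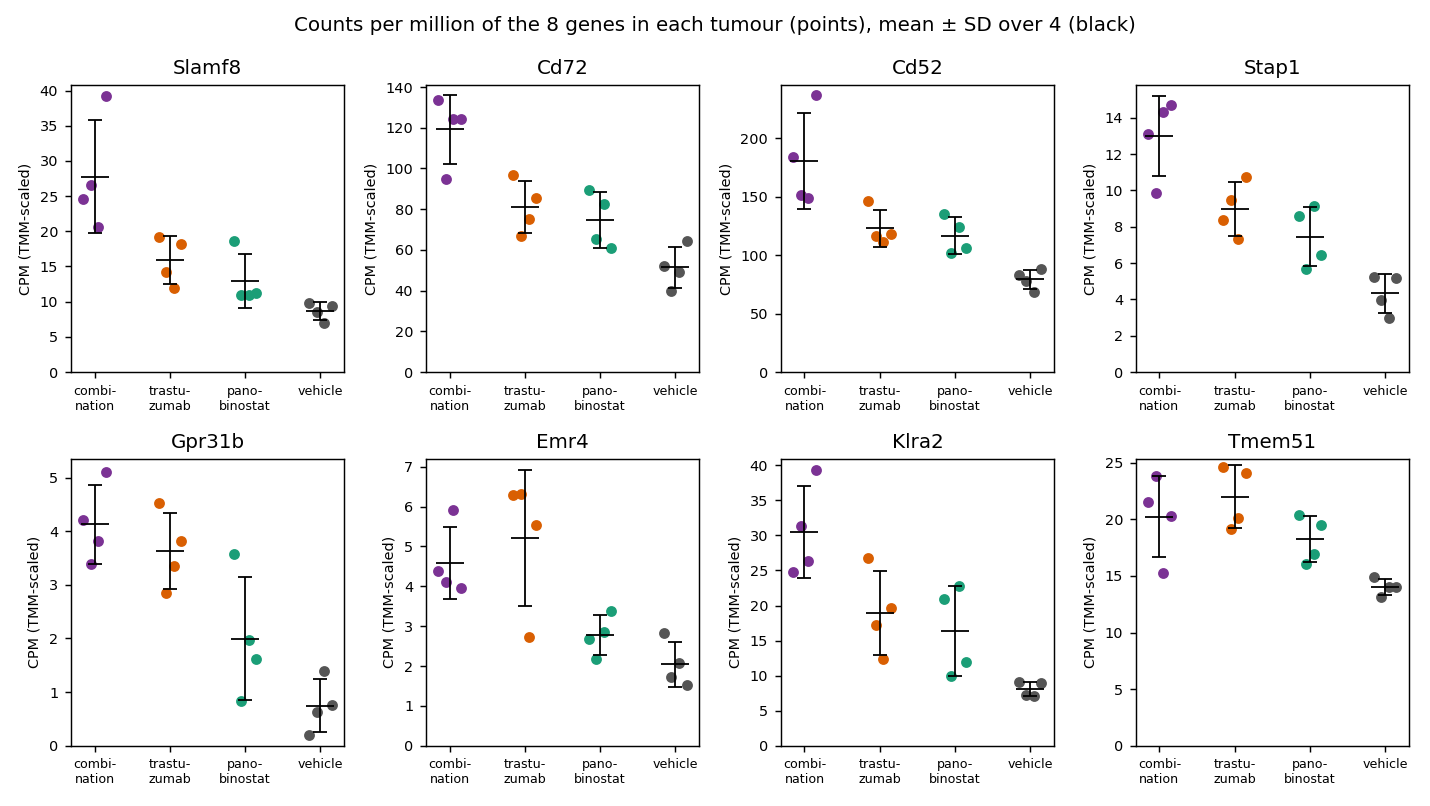
Level of each gene in TMM-scaled CPM (linear axes from 0) in every library, by group, with the group mean and its SD (n = 4 each). In Slamf8 and Cd52 the 4 combination tumours lie above all other tumours, whereas in Emr4 and Tmem51 they overlap those given trastuzumab alone.

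The plot of levels by library shows where the genes stand. Divided by the length of the gene's exons, Cd52 had the highest mean level in vehicle tumours, at 66.7 CPM per kilobase, followed by Cd72 at 15.0, Tmem51 at 7.47, Klra2 at 4.27 and Slamf8 at 2.82 CPM per kilobase. The libraries of these 5 genes did not overlap from one gene to the next. Stap1 (0.696), Emr4 (0.584) and Gpr31b (0.581 CPM per kilobase) came last, and their libraries overlapped.

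Trastuzumab tumours stood higher in all 8 genes, by a log2 difference of 0.40 to 1.65 with a median of 0.96, averaged over tumours with and without panobinostat. The median over all genes tested was 0.00 and 51.2% of them were above 0. At an adjusted p under 0.05, 0.167% of all genes were called in that comparison, 26 of 15610, all higher, and 7 of the 8 genes were among them. Tmem51 was not. Since this comparison chose the genes, nothing is read from that count. No gene of the 8 separated all 8 trastuzumab-treated tumours from all 8 others, as 0.0448% of genes tested did.

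Slamf8, the SLAM receptor, had 20.6, 24.6, 26.6 and 39.2 CPM in combination tumours, 11.9, 14.2, 18.2 and 19.2 CPM in trastuzumab tumours, 10.9, 10.9, 11.3 and 18.6 CPM in panobinostat tumours, and 6.94, 8.53, 9.43 and 9.86 CPM in vehicle tumours. All 4 combination tumours lay above the other 12, all trastuzumab and all panobinostat tumours lay above vehicle, and the single-drug groups overlapped. The trastuzumab difference was 1.11 (log2, SE 0.219) with panobinostat and 0.88 (SE 0.232) without it. Of its list of SLAM relatives and their adaptors, 9 were tested and 0 were called for either drug by edgeR's quasi-likelihood test, with 3 and 1 at an unadjusted p under 0.05. The median log2 difference was 0.22 for trastuzumab and 0.06 for panobinostat in this list. Slamf9, its closest family member by name and a myeloid gene, averaged 106.5 ± 17.0 CPM in combination, 81.0 ± 9.62 in trastuzumab, 71.0 ± 12.7 in panobinostat and 61.6 ± 1.81 CPM in vehicle tumours (SD, n = 4 each). It was named after its values were seen, its edgeR adjusted p for trastuzumab was 0.0578, and DESeq2, unlike voom, called it. The 6 subunits of the phagocyte NADPH oxidase gave 0 calls for either drug by edgeR, DESeq2 or voom, with 2 at an unadjusted p under 0.05 for each drug.

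Cd72, the lectin-like receptor with an ITIM, had 94.7, 124, 124 and 134 CPM in combination tumours, 66.7, 75.2, 85.6 and 96.6 CPM in trastuzumab tumours, 60.9, 65.4, 82.8 and 89.6 CPM in panobinostat tumours, and 39.6, 49.3, 52.1 and 64.5 CPM in vehicle tumours. Combination tumours lay above panobinostat tumours and trastuzumab tumours above vehicle, while 1 trastuzumab tumour reached into the combination range and 1 panobinostat tumour into the vehicle range. The trastuzumab difference was nearly equal in both arms, at 0.68 (SE 0.164) with panobinostat and 0.66 (SE 0.166) without it. Its tested partners, 6 genes with the ligand gene Sema4d and the phosphatase gene Ptpn6, gave 0 calls for either drug by edgeR, DESeq2 or voom, with 2 at an unadjusted p under 0.05 for trastuzumab and 0 for panobinostat. Among 12 other ITIM receptors of myeloid cells, Clec12a was higher with trastuzumab (log2 0.60, adjusted p = 0.0373 by edgeR with Benjamini-Hochberg adjustment). For panobinostat, Clec4a2 was higher (log2 0.35, adjusted p = 0.0323) and Cd300lf and Sirpa were lower (log2 -0.49 and -0.26, adjusted p = 0.0476 for each, edgeR).

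Klra2, the Ly49 receptor, had 24.8, 26.4, 31.3 and 39.3 CPM in combination tumours, 12.3, 17.2, 19.6 and 26.7 CPM in trastuzumab tumours, 9.89, 11.9, 20.9 and 22.7 CPM in panobinostat tumours, and 7.11, 7.26, 8.98 and 9.06 CPM in vehicle tumours. Every drug group lay above vehicle, and 1 trastuzumab tumour reached into the combination range. With panobinostat the trastuzumab difference was 0.90 (SE 0.253), and without it 1.24 (SE 0.273). Most Ly49 genes, known from NK cells, were too low to test: of 9 in the table only Klra3 passed the filter, with at most 22 counts. It averaged 1.90 CPM in combination, 1.43 in trastuzumab, 1.74 in panobinostat and 0.661 CPM in vehicle tumours. Klra3 was called for neither drug by edgeR, DESeq2 or voom, with an edgeR adjusted p of 0.941 for trastuzumab and 0.433 for panobinostat.

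Cd52, the lipid-anchored glycopeptide, was the most abundant of the genes. It had 149, 151, 184 and 237 CPM in combination tumours, 111, 117, 118 and 146 CPM in trastuzumab tumours, 101.5, 106, 124 and 135 CPM in panobinostat tumours, and 68.4, 77.7, 82.9 and 87.8 CPM in vehicle tumours. Combination lay above all 12 other tumours and both single drugs lay above vehicle without overlap. The trastuzumab difference was 0.63 (SE 0.149) with panobinostat and 0.64 (SE 0.150) without it. Among 8 tested Siglec and related genes, whose family includes the human receptor for CD52, Siglec1 was higher with panobinostat (log2 0.64, adjusted p = 0.0323) and Cd33 lower (log2 -0.39, adjusted p = 0.0322, edgeR), with 0 calls for trastuzumab by edgeR, DESeq2 or voom and 1 gene at an unadjusted p under 0.05.

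Stap1, the adaptor, had 9.85, 13.1, 14.3 and 14.7 CPM in combination tumours, 7.33, 8.36, 9.49 and 10.7 CPM in trastuzumab tumours, 5.70, 6.44, 8.59 and 9.12 CPM in panobinostat tumours, and 2.95, 3.95, 5.17 and 5.23 CPM in vehicle tumours. Each drug group was above vehicle without overlap, and combination was above panobinostat but overlapped trastuzumab. Trastuzumab tumours differed by 0.80 (SE 0.203) with panobinostat and by 1.06 (SE 0.219) without it. Its list of 10 partner genes (receptors, their ligands, kinases and the adaptor Stap2) held 6 at an unadjusted p under 0.05 for trastuzumab and 3 for panobinostat, and 8 had a positive trastuzumab difference. For trastuzumab 0 were called by edgeR, DESeq2 or voom, and for panobinostat 1 was called by each: Csf2rb, the shared receptor chain for GM-CSF and related cytokines, was higher with panobinostat (log2 0.32, adjusted p = 0.0407, edgeR).

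Gpr31b was the least abundant by CPM, with 1 to 40 counts per library. It had 3.38, 3.82, 4.21 and 5.11 CPM in combination tumours, 2.85, 3.35, 3.81 and 4.52 CPM in trastuzumab tumours, 0.839, 1.61, 1.97 and 3.58 CPM in panobinostat tumours, and 0.201, 0.631, 0.761 and 1.39 CPM in vehicle tumours. Trastuzumab tumours were above vehicle, 1 panobinostat tumour reached into the combination range, and 1 lay within the vehicle range. Its trastuzumab difference was 1.06 (SE 0.355) with panobinostat and 2.24 (SE 0.419) without it. The 5 tested genes of the 12-HETE list gave 0 calls by edgeR, DESeq2 or voom, with 1 at an unadjusted p under 0.05 for trastuzumab and 2 for panobinostat.

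Emr4, the seven-pass receptor of the F4/80 family, had 3.96, 4.12, 4.37 and 5.93 CPM in combination tumours, 2.72, 5.54, 6.30 and 6.33 CPM in trastuzumab tumours, 2.18, 2.68, 2.86 and 3.38 CPM in panobinostat tumours, and 1.52, 1.74, 2.08 and 2.82 CPM in vehicle tumours. Of the trastuzumab tumours, 3 stood above every tumour not given the antibody and 1 fell within the vehicle range. For this gene the trastuzumab difference was 0.71 (SE 0.269) with panobinostat and 1.39 (SE 0.279) without it. Of its list of 4 receptor and partner genes (Emr1, Cd97, Cd55 and Thy1), 0 were called for either drug by edgeR. At an unadjusted p under 0.05 stood 0 for trastuzumab and 1 for panobinostat. Emr1, which encodes F4/80 itself, averaged 226 CPM in combination, 274 in trastuzumab, 199.6 in panobinostat and 253 CPM in vehicle tumours. It was the 1 gene of the list that DESeq2 called, lower with panobinostat (log2 -0.31, edgeR adjusted p = 0.0720).

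Tmem51 had 15.3, 20.3, 21.6 and 23.8 CPM in combination tumours, 19.1, 20.1, 24.1 and 24.7 CPM in trastuzumab tumours, 16.1, 17.0, 19.5 and 20.4 CPM in panobinostat tumours, and 13.1, 14.0, 14.1 and 14.9 CPM in vehicle tumours. Every tumour that received a drug was above all 4 vehicle tumours, and the 3 drug groups overlapped. The trastuzumab difference was 0.15 (SE 0.139) with panobinostat and 0.65 (SE 0.141) without it.

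Counted over single arms, 7 of the 8 genes had all 4 trastuzumab tumours above all 4 vehicle tumours, which 1.4% of genes tested had, and 6 had all combination tumours above all panobinostat tumours, which 1.84% had. These counts belong to the comparison that chose the genes.

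**Figure D2:**
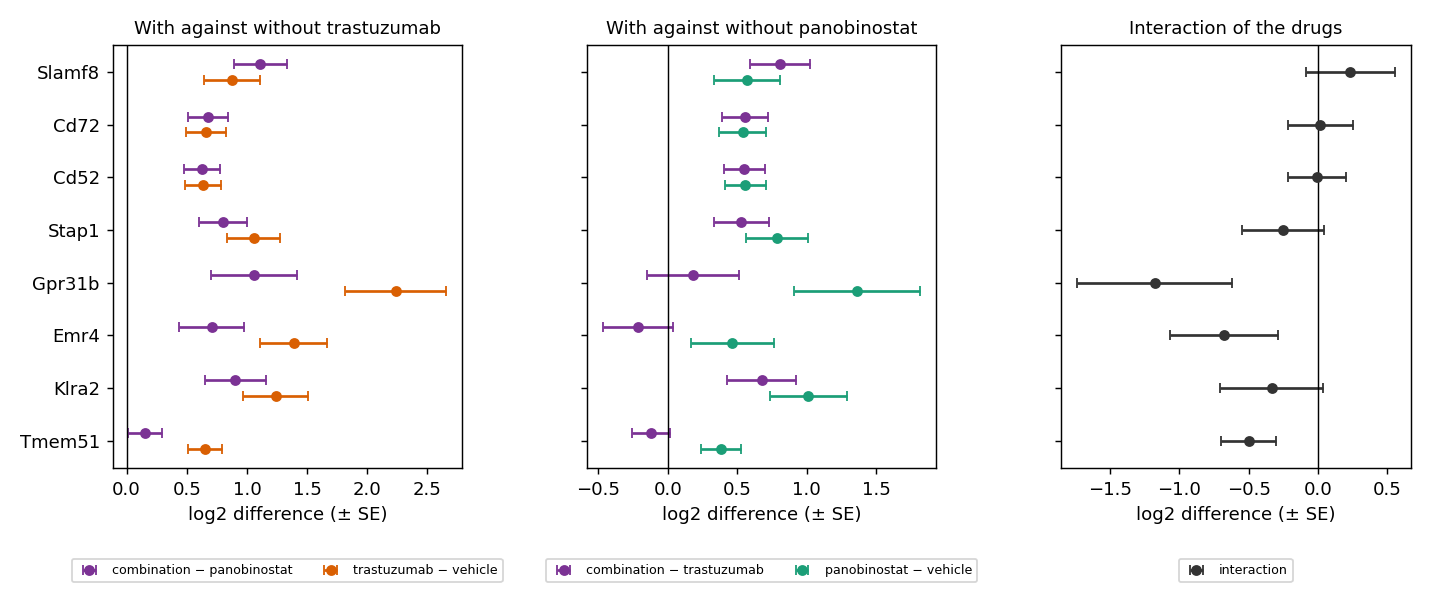
Log2 differences with their standard errors from the fit over all 16 libraries (linear axes), by gene. The left panel gives the trastuzumab difference with and without panobinostat, the middle panel the panobinostat difference with and without trastuzumab, and the right panel the interaction, which is positive for Slamf8 (0.23) and most negative for Gpr31b (-1.18).

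Tumours given panobinostat also stood higher in all 8 genes, and 5 of them rose past the threshold of edgeR's quasi-likelihood F test (Benjamini-Hochberg adjusted p under 0.05 over 15610 genes). Over all genes tested, 3.03% were called with panobinostat, 2.13% higher and 0.897% lower (333 and 140 genes). The median log2 difference of the 8 genes was 0.60, against 0.01 over all genes tested, of which 51.3% were above 0. In the deposited counts, 1327 symbols lacked a value in the panobinostat-treated libraries. A difference in handling could therefore not be told apart from the drug. The panobinostat comparison averages combination against trastuzumab tumours and panobinostat against vehicle tumours. It uses the same 16 libraries as the choice of the genes, weighted so that with equal groups it is nearly independent of the trastuzumab difference. Both tests, however, use the same estimate of a gene's spread within groups. A low estimate favours a call in both, and its part in the 5 panobinostat calls was not tested.

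Cd52 rose by 0.55 on the log2 scale (SE 0.106, adjusted p = 0.00728, edgeR), 1.47-fold. Cd72 rose by 0.55 (SE 0.117, adjusted p = 0.0140, edgeR) and Klra2 by 0.84 (SE 0.186, adjusted p = 0.0183, edgeR), the largest of the 5. All 3 stayed called when any 1 of the 16 libraries was left out. Stap1 rose by 0.66 (SE 0.149, adjusted p = 0.0226, edgeR) and Slamf8 by 0.69 (SE 0.159, adjusted p = 0.0249, edgeR). The call of Slamf8 was lost without trastuzumab replicate 15, trastuzumab replicate 20, panobinostat replicate 4 or vehicle replicate 21, at an edgeR adjusted p of up to 0.0601. That of Stap1 was lost without trastuzumab replicate 20, panobinostat replicate 4 or panobinostat replicate 8, at an edgeR adjusted p of up to 0.0546.

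The other 3 genes did not pass for panobinostat. Gpr31b differed by 0.77 on the log2 scale (SE 0.280, edgeR adjusted p = 0.190), Tmem51 by 0.13 (SE 0.0989, edgeR adjusted p = 0.657) and Emr4 by 0.12 (SE 0.194, edgeR adjusted p = 0.874). In Emr4 and Tmem51 the single arms had opposite signs. Emr4 differed by -0.22 between combination and trastuzumab tumours and by 0.46 between panobinostat and vehicle tumours. Tmem51 differed by -0.12 and 0.38 in the same pairs of groups.

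Within single arms, the test called 0 of the 8 genes. Combination against trastuzumab gave log2 differences of -0.22 to 0.80, above 0 in 6 genes, with a lowest edgeR adjusted p of 0.121, where 0.628% of all genes were called. Panobinostat against vehicle gave 0.38 to 1.36, above 0 in all 8, with a lowest edgeR adjusted p of 0.168, where 0.192% of all genes were called. At an unadjusted p under 0.05 these comparisons held 5 and 7 of the genes. Combination tumours lay above trastuzumab tumours without overlap in Slamf8 and Cd52, which 2.86% of genes tested did. Panobinostat tumours lay above vehicle without overlap in Slamf8, Cd52, Stap1, Klra2 and Tmem51, which 3.26% of genes tested did. DESeq2 and limma voom called the same number, 5 of the 8, in the average over both arms.

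The interaction asks whether the trastuzumab difference was another with panobinostat than without it. The count of calls was 0 of the 8 genes and 0% of all genes by edgeR, and DESeq2 and limma voom also called 0 genes, with 278 genes at an unadjusted p under 0.05 in edgeR. Slamf8 gave 0.23 (SE 0.320), Cd72 0.02 (SE 0.233) and Cd52 -0.01 (SE 0.210), and the last 2 changed sign with single libraries left out. Stap1 gave -0.25 (SE 0.298), Klra2 -0.33 (SE 0.371), Tmem51 -0.50 (SE 0.198), Emr4 -0.68 (SE 0.390) and Gpr31b -1.18 (SE 0.561). Tmem51 was the only one of the 8 at an unadjusted p under 0.05, and its edgeR adjusted p was 0.9999, as for the other 7. With standard errors of 0.561 and 0.390, interactions of the size seen in Gpr31b and Emr4 could not be told from 0 at this number of mice. That of Tmem51 did not pass the adjustment over 15610 genes.

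**Figure D3:**
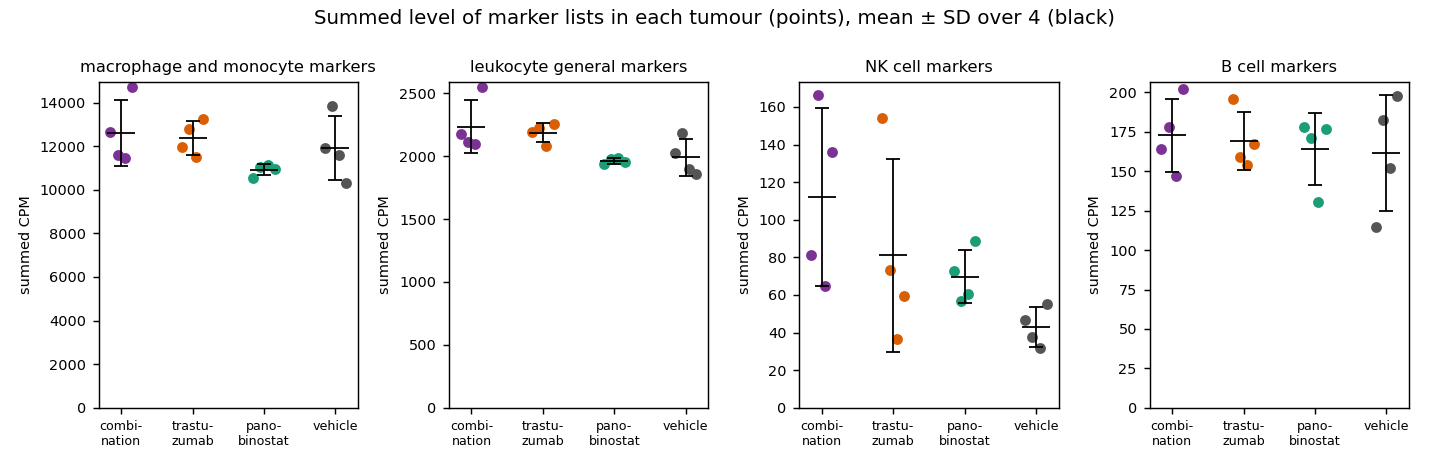
Summed level of marker lists in CPM by library and group, with the mean (linear axes). The macrophage and monocyte sums of vehicle tumours (10300 to 13850 CPM) overlap those of every other group. All combination (11460 to 14710 CPM) and trastuzumab tumours (11510 to 13250 CPM) lie above all panobinostat tumours (10540 to 11120 CPM). NK sums run from 64.8 to 166.3 CPM in combination and 31.6 to 55.4 CPM in vehicle tumours.

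Markers of leukocytes were measured beside the genes, as the plot of marker sums shows. More cells of a type and more RNA per cell cannot be told apart in whole tumours. The 22 macrophage and monocyte markers summed to 11460 to 14710 CPM in combination, 11510 to 13250 in trastuzumab, 10540 to 11120 in panobinostat and 10300 to 13850 CPM in vehicle tumours. The log2 difference of the sum was 0.13 for trastuzumab (exact two-sided permutation p = 0.0665, adjusted p = 0.254 over 42 tests) and -0.05 for panobinostat (exact permutation p = 0.480, adjusted p = 0.717). Of the 22, 0 were called for trastuzumab by edgeR, with 7 at an unadjusted p under 0.05, and DESeq2 called Cd14 and Ccr2. With panobinostat edgeR called 2, both higher. They were Fcgr1, the high-affinity IgG receptor (log2 0.73, adjusted p = 0.00108), and Ccr2, the monocyte chemokine receptor (log2 0.54, adjusted p = 0.0213, edgeR). DESeq2 also called Emr1 and Lyz2, which stood lower with panobinostat (log2 -0.31 and -0.27, adjusted p = 0.0720 and 0.129 by edgeR).

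Per 1000 CPM of summed macrophage markers, all 8 genes again had positive differences for both drugs. Slamf8 averaged 2.18 ± 0.385 in combination, 1.28 ± 0.258 in trastuzumab, 1.19 ± 0.384 in panobinostat and 0.740 ± 0.157 in vehicle tumours (CPM per 1000 CPM, SD, n = 4 each). On this scale the log2 differences for trastuzumab were 0.26 in Tmem51, 0.49 in Cd52, 0.54 in Cd72, 0.81 in Stap1, 0.85 in Slamf8, 0.89 in Emr4, 0.94 in Klra2 and 1.76 in Gpr31b. Those for panobinostat were 0.17 in Tmem51, 0.22 in Emr4, 0.59 in Cd52, 0.60 in Cd72, 0.71 in Stap1, 0.72 in Slamf8, 0.87 in Klra2 and 0.91 in Gpr31b. Lyz2 was the most abundant of the summed markers, at 3627 CPM in panobinostat to 5107 CPM in trastuzumab tumours. It differed by 0.23 with trastuzumab and by -0.27 with panobinostat (log2). Trastuzumab-treated tumours above all 8 others numbered 2 to 6 per gene on this scale, against 4 to 7 in CPM. No test was made on this scale.

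The NK list stood higher with each drug, without passing the adjustment. Its 15 genes summed to 64.8 to 166.3 CPM in combination, 36.9 to 154.4 in trastuzumab, 57.0 to 88.5 in panobinostat and 31.6 to 55.4 CPM in vehicle tumours. The log2 difference was 0.68 for trastuzumab (exact permutation p = 0.0274, adjusted p = 0.164) and 0.64 for panobinostat (exact permutation p = 0.0412, adjusted p = 0.178). Of 14 tested, 0 were called for trastuzumab by edgeR, DESeq2 or voom, with 10 at an unadjusted p under 0.05, and 2 rose with panobinostat: Klrk1, the activating receptor NKG2D (log2 1.31, adjusted p = 0.00495), and Xcl1, a chemokine of NK cells (log2 1.08, adjusted p = 0.0266, edgeR). Klra2 belongs to a family known from NK cells, and the part of NK cells in its values was not tested.

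General leukocyte genes such as Ptprc and Laptm5 summed to 2097 to 2551 CPM in combination, 2077 to 2254 in trastuzumab, 1938 to 1989 in panobinostat and 1858 to 2187 CPM in vehicle tumours. This sum, over 9 genes, was higher with trastuzumab by 0.16 on the log2 scale (exact permutation p = 0.000816, adjusted p = 0.0343) and differed by 0.01 with panobinostat (exact permutation p = 0.907). The trastuzumab result did not pass without any 1 of combination replicate 22, trastuzumab replicate 24, the 4 panobinostat replicates or vehicle replicates 3, 21 and 29, at an adjusted p of up to 0.0971 (exact permutation). Its part in the members' trastuzumab difference was not tested.

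B cell markers were mixed in level. Their sum was 147.0 to 202.0 CPM in combination, 154.1 to 195.5 in trastuzumab, 130.3 to 178.0 in panobinostat and 114.5 to 197.5 CPM in vehicle tumours. Most of it was Ighm, which averaged 125 CPM in combination, 124 in trastuzumab, 120.4 in panobinostat and 108 CPM in vehicle tumours. Ebf1, Cd22 and Cd79b reached 275, 154 and 35 counts in a library. Cd79a, Cr2, Fcer2a, Blk and Vpreb3 had at most 3 counts in any library, and Ms4a1 at most 4. The highest counts of Cd72, Cd52 and Stap1 were 973, 1857 and 115. The part of B cells in the values of Cd72, Cd52 and Stap1 was not tested. Of 4 B cell genes tested, 0 were called for either drug by edgeR, DESeq2 or voom, with 0 at an unadjusted p under 0.05. Of 5 T cell genes 0 were called by these tools, with 2 at an unadjusted p under 0.05 for trastuzumab and 1 for panobinostat. Among 12 dendritic cell genes, Itgax, which encodes CD11c of dendritic cells and of some macrophages, was the only call for trastuzumab. It averaged 117 CPM in combination, 98.3 in trastuzumab, 71.5 in panobinostat and 55.2 CPM in vehicle tumours (log2 0.77, adjusted p = 0.0235, edgeR).

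**Figure D4:**
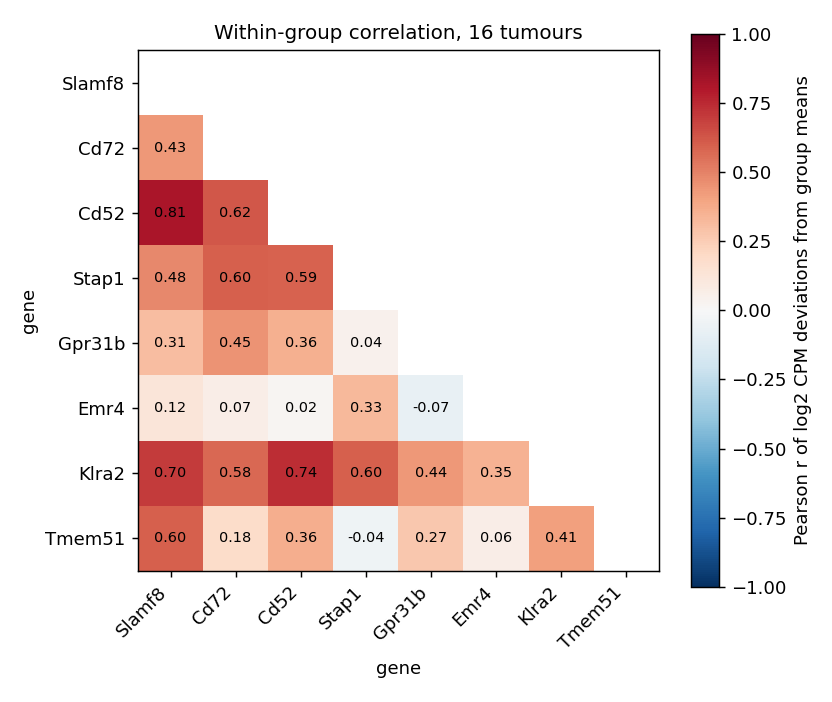
Pearson correlations between the 8 genes over 16 libraries, after each group's mean was removed from log2 CPM. Of 28 pairs, 26 are positive, and the highest is Slamf8 with Cd52 (0.81).

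Within groups the genes varied together in part. The spread of each gene within groups enters the test behind the comparison that chose the genes, and the correlation between genes does not. Of 28 pairs, 26 had a Pearson r above 0, with a median of 0.386 and a range of -0.0720 to 0.814. The share above 0 and the median were not measured for pairs of other genes. Whether this covariation is particular to these genes was therefore not tested. Slamf8 and Cd52 had r = 0.81 and Spearman's rho = 0.77 over 16 libraries (permutation adjusted p = 0.0202 and 0.0314 over the 28 pairs), and r = 0.69 without combination replicate 22 and panobinostat replicate 4. Cd52 and Klra2 had r = 0.74 and rho = 0.74 (permutation adjusted p = 0.0382 and 0.0387), and r = 0.67 without combination replicate 22 and trastuzumab replicate 12. Slamf8 and Klra2 had r = 0.70 and rho = 0.71 (permutation adjusted p = 0.0382 and 0.0387), and r = 0.62 without combination replicate 22 and panobinostat replicate 4. The other 25 pairs did not pass. The count of 3 passing pairs fell to 0 without combination replicate 16 or 22 or trastuzumab replicate 12 or 20, and to 1 without trastuzumab replicate 15 or 24, panobinostat replicate 7 or 13, or vehicle replicate 29.

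The tumours that stood high for their group in the 8 genes were panobinostat replicate 4, with a mean standardised deviation of 1.13, trastuzumab replicate 12 (0.919) and combination replicate 22 (0.785). Those that stood low were panobinostat replicate 7 (-1.15) and trastuzumab replicate 20 (-1.05). Compared with 13521 other genes over the same 16 libraries, genes whose deviations were among the most like the mean of the 8 genes were Arhgap25 (r = 0.83), H2-Eb1 (0.81), Rasgrp1 (0.81) and H2-DMb2 (0.80). Gene by gene, the most alike was Bcl2a1d for Cd52 (r = 0.87), Rasgrp1 for Klra2 (0.85), Stx11 for Slamf8 (0.86), Ppfia4 for Cd72 (0.89), Exosc3 for Stap1 (0.83), Tmprss4 for Gpr31b (0.78), Ippk for Emr4 (0.88) and Gimap1 for Tmem51 (0.86). These r values are the highest of many and are given with no test.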

How the data were processed

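The authors deposited 1 table of raw counts, 1 line per mouse gene. The submitters' processing notes name CASAVA 1.8.2, TopHat2, HTSeq and the build mm10. Their settings, the annotation and how human reads were handled are not stated in those notes or the labels. The table listed 24681 symbols. In all 8 panobinostat-treated libraries 1327 of them had a dot for a value and were left out, none of the 8 genes among them. The libraries without panobinostat held counts for these symbols. Whether the libraries with and without panobinostat also differed in handling was not tested, and such a difference could not be told apart from the drug.

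Counts were tested as deposited with edgeR 4.0.16 (R 4.3.3): TMM scaling, filterByExpr, 1 quasi-likelihood fit of the 4 group means over 16 libraries, and Benjamini-Hochberg adjustment over 15610 genes. The common BCV (biological coefficient of variation) came to 0.183. A standard error (SE) is the log2 difference divided by the root of the F statistic. Drug differences are averaged over the other drug. The code was checked on simulated data. Sums of marker lists were compared by exact two-sided permutation within levels of the other drug, adjusted over 42 tests. Correlations used log2 CPM with a prior count of 2, and 100000 permutations within groups. DESeq2 1.42.0, limma 3.58.1 voom, other scalings, no filter and leaving out each library were alternatives.

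The genes and lists were chosen with earlier results of these data known. From each list, up to 3 called genes of lowest adjusted p are named per comparison. Each library came from its own mouse. Within groups, libraries differed by a chi-square per degree of freedom of 4.06 to 34.2, so none was a repeat of another. Lists of mast cell, neutrophil, eosinophil, fibroblast, endothelial and adipocyte markers were also measured and are given among the other observations. Sequences are from RefSeq (GRCm38.p6). A result for 1 gene most like the 8 and a result for 1 B cell marker are not reported here.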

Additional observations from a re-analysis of the deposited data

Results flagged for a closer look

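Slamf8 in panobinostat replicate 4 stood at 18.6 CPM, far from the other 3 panobinostat tumours at 10.9, 10.9 and 11.3 CPM. Its gap to the nearest was 0.952 of the group's range, above Dixon's 95% critical value. The 8 genes in 4 groups gave 32 such tests and this 1 flag, and chance flags about 1 group in 20. The same library had the highest mean deviation over the 8 genes.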

How the results depend on the processing

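All 8 genes kept a positive trastuzumab difference under every scaling, filter and tool run and with each library left out. The 5 panobinostat calls numbered 5 under other scalings, no filter, DESeq2 and voom, and 3 to 5 with 1 library left out, 3 without trastuzumab replicate 20 or panobinostat replicate 4. Over all genes, trastuzumab calls numbered 60 by DESeq2 and 2 to 34 with 1 library left out, against 26. They numbered 2 without trastuzumab replicate 24, panobinostat replicate 7 or 13 or vehicle replicate 6, 8 to 10 without trastuzumab replicate 12, vehicle replicate 21 or combination replicate 2, and 12 to 17 without combination replicate 22 or 11 or vehicle replicate 29. Panobinostat calls numbered 406 to 615 under other settings and 326 to 480 with 1 library left out. The panobinostat difference of Emr4 and Tmem51 was -0.22 and -0.12 in combination against trastuzumab alone. The interaction of Cd52 was 0.011 with no filter and -0.17 to 0.11 with 1 library left out, and that of Cd72 was -0.12 to 0.14. The leukocyte sum's trastuzumab difference was 0.15 (adjusted p = 0.0600, exact permutation) under DESeq2 size factors and 0.13 to 0.18 with 1 library left out. Under total-count scaling the trastuzumab differences of the oxidase sum (0.19) and the eosinophil sum (0.79) passed (exact permutation). With 1 library left out they ranged from 0.14 to 0.20 and 0.71 to 0.92, and the panobinostat differences of the NK and fibroblast sums ranged from 0.48 to 0.83 and -0.44 to -0.33. The oxidase sum then passed without combination replicate 2, 11 or 16 or trastuzumab replicate 12, 15 or 20 (lowest adjusted p = 0.0171, exact permutation), and the eosinophil sum without combination replicate 16 or trastuzumab replicate 12 or 15 (lowest 0.0343). The NK and fibroblast sums passed without trastuzumab replicate 12 (adjusted p = 0.0480 for each, exact permutation). Passing correlation pairs numbered 0 to 3. The causes were not tested. Scalings moved the median of all genes by under 0.1. No paired analysis was possible because each mouse number occurs once over the 16 libraries. Depth limits Gpr31b and Emr4 most.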

Other observations

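Of 10 neutrophil genes tested, 5 fell with panobinostat by edgeR. For trastuzumab 0 were called by edgeR, DESeq2 or voom, with 2 at an unadjusted p under 0.05. S100a8 and S100a9, subunits of calprotectin, fell by 1.37 and 1.56 on the log2 scale (adjusted p = 0.000949 and 0.00158), and Cxcr2 fell by 0.74 (adjusted p = 0.00224, edgeR). The list did not fall as a whole. Its sum differed by -0.20 with panobinostat (exact permutation p = 0.0841, adjusted p = 0.257). Of the 10 genes, 3 stood higher with panobinostat: Mmp8 (log2 1.28), which DESeq2 called, Ltf (0.51) and Lcn2 (0.46). S100a8 averaged 8.52 CPM in combination, 27.6 in trastuzumab, 14.7 in panobinostat and 30.0 CPM in vehicle tumours. Eosinophil markers were low, with 2 tested and 0 called by edgeR or voom. Ear2 was at an unadjusted p under 0.05 for trastuzumab and was called by DESeq2. Their sum was 0.78 higher on the log2 scale with trastuzumab (exact permutation p = 0.00408, adjusted p = 0.0572). The sum of the NADPH oxidase genes was 0.18 higher with trastuzumab (exact permutation p = 0.00245, adjusted p = 0.0514). Of 10 fibroblast genes, Fap and Col1a2 fell with panobinostat by 0.48 and 0.57 (adjusted p = 0.0349 and 0.0382, edgeR). Of 9 endothelial genes, Eng and Vwf rose with panobinostat by 0.34 and 0.54 (adjusted p = 0.0120 and 0.0306, edgeR). Of 7 mast cell and 9 adipocyte genes tested, 0 were called for either drug by edgeR, DESeq2 or voom. At an unadjusted p under 0.05 stood 3 mast cell genes for trastuzumab and 1 for panobinostat, and 0 adipocyte genes. What these cells contributed to the levels of the 8 genes was not tested.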
